A study of Canis lupus familiaris with 34 samples.

Results

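A run of 8 neighbouring genes on dog chromosome 21 had very low transcript values in 2 cell lines from osteosarcoma, a cancer of bone-forming tissue that is common in large dogs. The genes, in chromosome order, were TMEM135, PRSS23, ME3, HIKESHI, EED, PICALM, TMEM126A and TMEM126B. They were chosen by symbol, because earlier results of these data had shown them low on single line arrays, so their low values there are a description and carry no test. They are 8 of the 15115 genes with a single-symbol probe set on the Affymetrix Canine_2 array, and 20 of 42860 probe sets. Their order and chromosome are those of the UU_Cfam_GSD_1.0 gene table, and no build is given in the sources used here for the array itself.

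The series held 25 arrays of lines from primary tumours, 3 of lines from metastases and 6 of snap-frozen primary tumour tissue. They came from 31 dogs, mostly Rottweilers and Golden Retrievers. Primary line arrays were 10 Rottweiler, 8 Golden Retriever, 2 German Shepherd and 1 each of Alaskan Malamute, Great Pyrenees, Mastiff, Saint Bernard and unknown breed. Metastatic lines were 2 Rottweiler and 1 Rhodesian Ridgeback, and tissues 3 Golden Retriever and 1 each of Great Pyrenees, Belgian tervuren and Borzoi. Among tissues only tissue 2 was labelled male (MC), while lines carried labels of both sexes. Breed and sex thus overlap with group and were not fitted. The labels name no agent applied to the cells, and lines were grown from fresh or cryopreserved tumour cells. Treatment labels of the dogs (SOC, AMP, PALL, ABX), which are not spelled out, were not used. Each line is 1 array of 1 dog, except that primary lines 19 and 22 both came from dog OSCA_71 and were averaged, which left 27 line columns. Ages on the labels, with no unit given, were 2 to 11.19 for primary lines, 2.39 to 6.31 for metastatic lines and 2.67 to 11.91 for tissues. Titles carried 1 of 3 prefixes, and both primary lines 22 and 23 shared theirs with all 6 tissues, so prefix and group overlap. All values are log2 of the authors' GCRMA intensity unless a fold is stated. GCRMA levels of different probe sets are not comparable, so every comparison is within a probe set.

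As background, EED is the subunit of Polycomb repressive complex 2 (PRC2) that binds trimethylated lysine 27 of histone H3. It works with SUZ12 and the methyltransferase EZH2 or EZH1, which place that mark on silenced developmental genes. PICALM assembles clathrin at the plasma membrane, HIKESHI carries HSP70 chaperones into the nucleus under heat stress, and ME3 is the mitochondrial malic enzyme that makes NADPH. TMEM126A and TMEM126B help assemble mitochondrial complex I, PRSS23 is a serine protease, and TMEM135 is a membrane protein of mitochondria and peroxisomes. These roles are known from human and mouse.

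The low values lay on 2 arrays. A probe set was called low on an array at log2 under 5 and at least 3 below its own median over the 28 line arrays, and was judged only where that median was 7 or more. Of the 20 member probe sets, 15 could be judged. On primary line 6, a Rottweiler line from dog OSCA_8, all 15 were low, and so were all 8 genes, against a background of 1.41% of 10177 judged probe sets on that array. On primary line 23, whose breed label reads German Shephard, 12 of 15 were low, covering the 6 genes TMEM135 to PICALM, against a background of 1.6%. Because the genes were chosen for these low values, nothing is read from either share. Of the other 26 line arrays, 25 had no low member probe set, and primary line 4 had 1, that of ME3. On line 4, 3.65% of all judged probe sets were low, a larger share than on line 6 or line 23.

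EED had a log2 intensity of 1.39 on line 6 and 1.85 on line 23. The 25 other line columns lay between 9.15 and 10.70, with a median of 10.003, and the 6 tissues had 9.95, 9.90, 9.26, 9.51, 9.43 and 9.57. Lines 6 and 23 were thus far below all other lines and all tissues, which overlapped each other. Relative to the median of the other lines the difference was 392-fold on line 6 and 285-fold on line 23, on the GCRMA scale, whose lowest values depend on its background model. EED was measured by 1 probe set.

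PICALM had 1.35 on line 6 and 1.52 on line 23, against 10.34 to 12.43 (median 11.31) on the other lines and 11.70, 11.39, 10.59, 10.24, 10.79 and 10.46 in tissues. HIKESHI had 1.60 on line 6 and 2.05 on line 23. Its other lines ran from 10.16 to 11.43 (median 10.84), and its tissues had 10.55, 10.51, 11.13, 10.33, 10.42 and 10.96. On the remaining lines this HIKESHI probe set had an SD of 0.32 (n = 25), while another judged HIKESHI probe set ran from 7.25 to 10.74 there.

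PRSS23 had 1.58 on line 6 and 2.16 on line 23, against 8.30 to 12.51 (median 11.41) on the other lines. Its tissues spread widely, at 11.91, 11.73, 8.03, 9.58, 11.32 and 9.18, and 5 of the 6 lay within the range of the other lines. TMEM135 had 1.37 on line 6 and 0.98 on line 23, against 6.75 to 8.54 (median 7.68) on the other lines. TMEM135 in tissues was 6.62, 7.30, 6.91, 5.91, 6.93 and 6.30, so 3 of 6 tissues lay below every line other than 6 and 23.

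ME3 had 1.83 on line 6 and 2.01 on line 23, and was the most variable member elsewhere, at 4.66 to 10.93 (median 9.28) on the other lines. Primary line 4, at 4.66, also had a low call for ME3, but had no low call for any other member. Just outside the threshold of 5 were both arrays of dog OSCA_71, with 5.00 on primary line 22 and 5.69 on primary line 19. The tissues had 8.32, 8.80, 5.94, 6.07, 9.78 and 6.64. The tissue from dog OSCA_71 was the one at 9.78, well above both line arrays of the same dog.

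TMEM126A and TMEM126B separated the pair. On line 6 TMEM126A had 1.35 and TMEM126B 3.32. On line 23 TMEM126A had 10.19 and TMEM126B 9.78. Values of the other lines were 10.13 to 12.20 (median 11.51) for TMEM126A and 8.70 to 10.81 (median 9.80) for TMEM126B. Line 23 was therefore at the low end of the other lines for TMEM126A and at their median for TMEM126B. In tissues TMEM126A had 10.44, 10.999, 11.37, 10.61, 10.82 and 11.16, and TMEM126B 9.51, 9.43, 10.12, 9.56, 9.48 and 10.54.

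**Figure D1:**
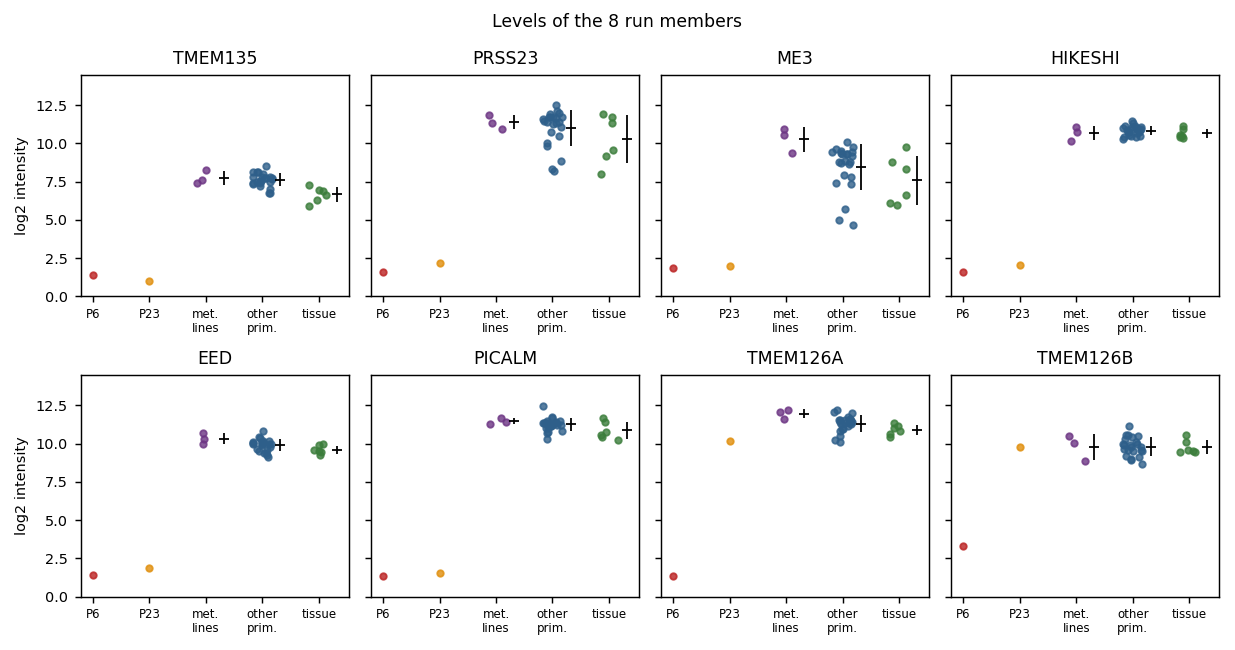
Log2 intensity (y axis) of each of the 8 genes, 1 panel a gene, on primary line 6 (P6), primary line 23 (P23), the 3 metastatic lines, the 23 other primary line arrays and the 6 tissues. Each point is 1 array and bars give the mean and SD of groups. P6 is low in all 8 panels and P23 in all but TMEM126A and TMEM126B.

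The 5 member probe sets that could not be judged had line medians of 3.43 to 6.13. Where a gene had several judged probe sets they gave the same call on both arrays. This held for TMEM135, PRSS23, HIKESHI, PICALM and TMEM126A. Another PICALM probe set, with a line median of 7.01 and so just inside the limit for judging, was under log2 5 on 4 line arrays, of which only lines 6 and 23 met the full rule.

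Inside the run, the gene table placed 17 coding genes between TMEM135 and TMEM126B, of which 13 had a probe set. Both counts include the members PRSS23, ME3, HIKESHI, EED, PICALM and TMEM126A. CREBZF, a bZIP transcription regulator between PICALM and TMEM126A, had 2.16 on line 6 and 5.14 on line 23, against 5.51 to 8.69 on the other line arrays. Its line median, 6.9, was just too low for it to be judged, and line 23 lay only slightly below the other lines. SYTL2, a vesicle trafficking protein on the PICALM side of CREBZF, had 2.84 on line 6 and 2.80 on line 23, against 3.23 to 8.36 on the other line arrays and 3.80 to 7.96 in tissues. FZD4, CCDC81, CCDC83, CCDC89 and DLG2 had line medians of 3.86 or less and could not be judged.

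Outward from TMEM135, the next genes were RAB38 and CTSC. CTSC, a lysosomal peptidase, had 1.76 on line 6 and 5.63 on line 23, against 3.57 to 8.86 on the other lines and 8.91 to 11.70 in tissues. Line 6 was lowest of all arrays for CTSC, while line 23 lay inside the range of the other lines. RAB38 had 3.29 on line 6 and 4.05 on line 23 and a line median of 3.67. The line medians of NOX4, TYR and GRM5 were 3.83 or less, so the first gene that could be judged and was not low was FOLH1B, at 9.96 on line 6 and 9.41 on line 23. FOLH1B probe sets may share sequence with its paralogue FOLH1. The next judged gene, CHORDC1, which binds HSP90, had 10.17 on line 6 and 8.79 on line 23, against 8.06 to 10.67 on the other lines.

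Beyond TMEM126B, none of the 6 nearest judged genes was low on line 6. CCDC90B, a mitochondrial protein and the next gene with a probe set, had 10.16 on line 6 and 10.53 on line 23, against 10.05 to 11.66 on the other lines. RAB30, a Golgi GTPase, had 5.78 on line 6 and 3.80 on line 23, and the other lines spread from 3.35 to 9.21. Its line median was 7.39, so RAB30 met the rule for a low call on line 23, apart from the run, with 3 judged genes between them that were not low. PRCP, a lysosomal carboxypeptidase, had 7.87 on line 6 and 8.28 on line 23, inside the range of the others (6.22 to 9.39). On line 23 the unbroken low calls ended between PICALM and TMEM126A, with SYTL2 and CREBZF in that gap.

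**Figure D2:**
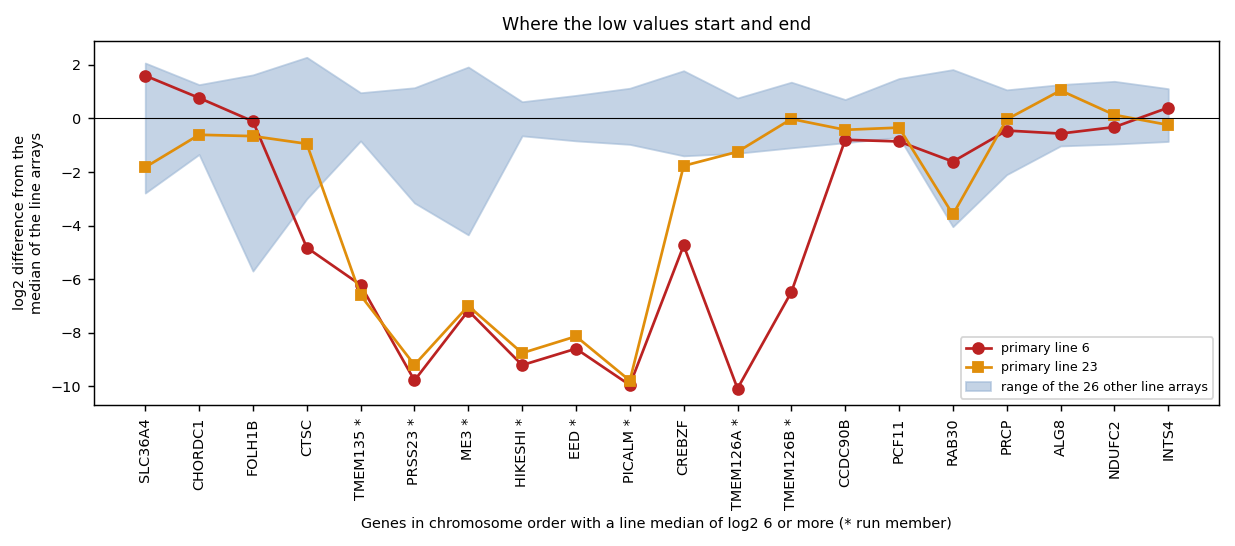
Log2 difference of each gene from its median over the 28 line arrays (y axis), for genes in chromosome order with a line median of at least log2 6 (x axis, asterisks mark the 8 run members). Red circles are primary line 6, orange squares primary line 23 and the band is the range of the 26 other line arrays. The red line stays low from CTSC to TMEM126B and the orange line from TMEM135 to PICALM.

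Over the 8 members, the median deviation from the line medians was -8.90 on line 6 and -7.56 on line 23, and -0.87 to 0.33 on the other 26 line arrays. The 15 nearest judged genes on the TMEM135 side, those whose line median was 7 or more, had medians of -0.22 on line 6 and -0.89 on line 23, against -0.49 to 0.34 on the other lines. The 15 nearest judged genes on the TMEM126B side had medians of -0.47 on line 6 and -0.08 on line 23, against -0.48 to 0.51. The 71 judged genes of chromosome 21 outside the run had medians of -0.45 on line 6 and -0.25 on line 23, against -0.39 to 0.27. Line 23 was thus below all other lines on the TMEM135 flank, and line 6 over the rest of the chromosome, by less than 1 log2 unit each.

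**Figure D3:**
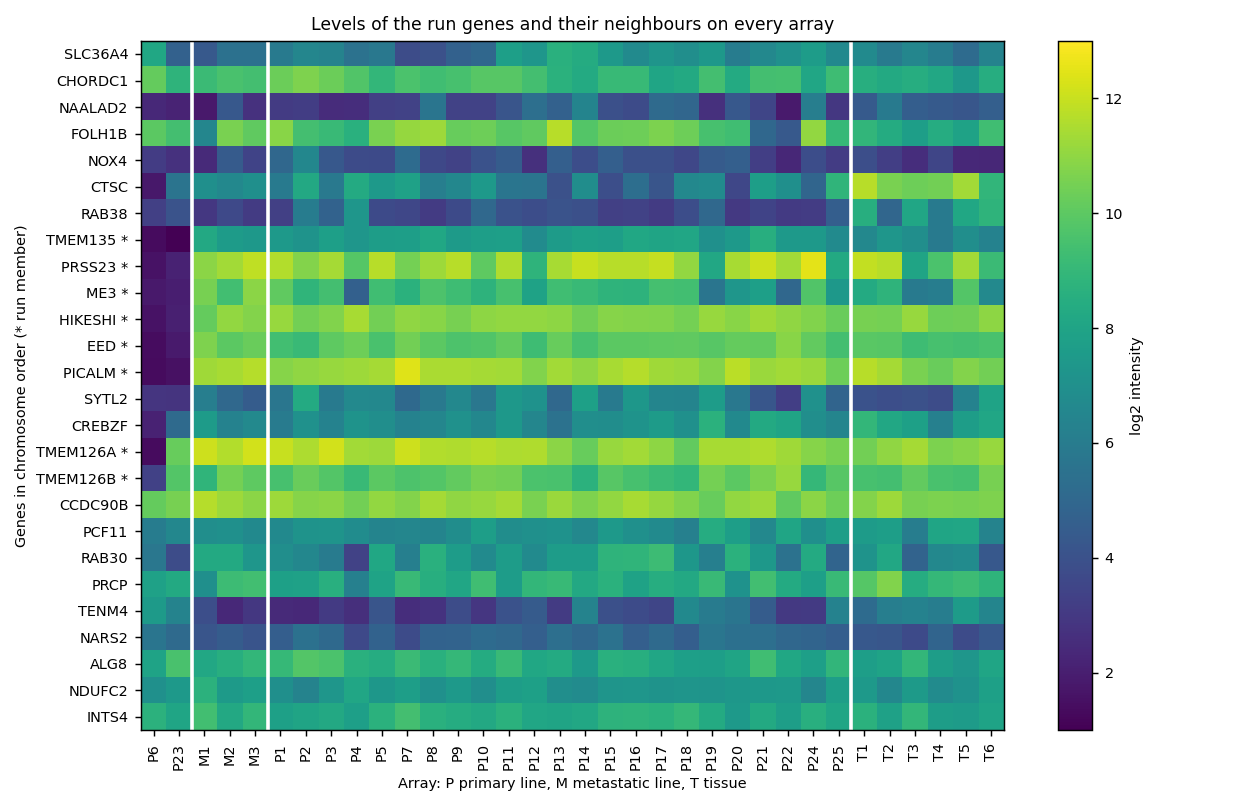
Log2 intensity (colour) of the run and its neighbours with a kept probe set (rows, chromosome order, asterisks mark the 8 run members) on all 34 arrays (columns). White lines separate primary lines 6 and 23 (left), the metastatic lines, the other primary lines and the tissues. The dark block covers 8 members in the first column and 6 in the second, and no tissue column shows it.

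Among 4499 judged genes in chromosome order on 28 line arrays, the 8 genes on line 6 and the 6 on line 23 were the 2 longest stretches of consecutive low genes. There were 32 stretches of at least 2 genes, 8 of at least 3 and 4 of at least 4. The others of 4 genes were on chromosome 26, SGMS1 to STAMBPL1 on primary line 12 and MINPP1 to ACTA2 on primary line 6. Primary line 23 had 3 low genes there, SGMS1, MINPP1 and RNLS, and primary line 21 also had 3. MINPP1, an inositol polyphosphate phosphatase, had 1.89 on line 6 and 1.40 on line 23, with 1.59 on line 12 and 2.75 on line 21, against a median of 7.61 over the lines other than 6 and 23. Both lines with the low chromosome 21 run were therefore among the 4 lines with such a stretch on chromosome 26.

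Away from chromosome 21, the deepest low calls on line 6 were ACTA2 (1.84, line median 13.71, low on this line array alone), EFEMP2, ASPN, SNCG and NDUFA4L2. On line 23 they were SGMS1 (1.74, line median 11.12), DLA88, EFEMP2, MTAP and SNCG. SNCG, gamma-synuclein, was low on lines 6 and 23 and on no other line array, at 2.18 on line 6 and 2.58 on line 23. EFEMP2, an elastic fibre protein, was low on both and on 1 further line.

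The 2 arrays came from different dogs, breeds and title prefixes. Their correlation over all 42860 probe sets without controls was 0.966. That was above the median of 0.949 over 378 pairs of line arrays, and 102 pairs were closer. Both arrays of dog OSCA_71 correlated at 0.964. Median intensities were 8.54 on line 6 and 8.25 on line 23 (linear scale), and all primary lines lay between 8.09 and 8.54, so line 6 was the highest. The 3′ minus 5′ actin difference, a sign of RNA quality, was 8.37 on line 6 and 8.52 on line 23, within the 6.45 to 9.92 of primary lines. The part of these measures in the low run was not tested, and DNA copy number was not analysed here.

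Checked against markers of its labelled tumour type, COL1A1 was 13.69 on line 6 and 13.40 on line 23, and the 9 osteoblast and mesenchymal markers tested averaged 8.78 on line 6 and 8.16 on line 23, against 6.96 to 9.30 on the other lines and 10.08 to 11.98 in tissues. Of these 9, 3 were called lower in primary lines than in tissues, beside 9.06% of all 7849 genes tested. They were ALPL, IBSP and SPP1, markers of mature bone-forming cells, each at least 2-fold lower (limma adjusted p = 4.09e-07, 6.27e-13 and 9.61e-07). BGLAP, also in that list, was not called (difference -1.02, limma adjusted p = 0.18). The 9 macrophage markers averaged 2.33 on line 6, 2.38 on line 23, 2.20 to 4.49 on the other lines and 8.36 to 11.05 in tissues. All 9 were called lower in primary lines, as were all 4 endothelial markers tested, which averaged 3.29 on line 6, 2.84 on line 23, 2.56 to 10.40 on the other lines and 7.72 to 12.06 in tissues. Tissues thus carried markers of other cell types, whose part in the tissue values of the run was not tested. In bulk RNA, fewer cells expressing a gene and less RNA per cell cannot be told apart.

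Whether the run differed between primary lines as a group and tissues was asked with limma over 7849 genes, a call needing an adjusted p under 0.05 and a 2-fold change. The background was 14.6% called (1148 genes), with 5.57% higher (437) and 9.06% lower (711) in primary lines. None of the 8 members was called (0 of 8), and 0 had an unadjusted p under 0.05, which 35.5% of all genes had. The primary lines included both arrays the genes were chosen on, which widened the spread of every member. For EED the primary SD was 2.36 with those arrays and 0.37 without them. The result with all arrays therefore cannot decide whether the run differed between the groups. EED averaged 9.20 ± 2.36 in primary lines and 9.60 ± 0.27 in tissues (SD, n = 24 and 6), a difference of -0.41 (SE 0.91, limma adjusted p = 0.789). Differences of the 8 members ran from -0.58 for HIKESHI to 0.43 for TMEM135, with a median of -0.16, against -0.05 over all genes tested.

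With lines 6 and 23 left out, an alternative chosen after seeing the data, EED averaged 9.89 ± 0.37 in primary lines and 9.60 ± 0.27 in tissues (SD, n = 22 and 6), a difference of 0.28 (SE 0.17, limma adjusted p = 0.236). TMEM135 was then 7.63 ± 0.43 in primary lines and 6.66 ± 0.50 in tissues, a difference of 0.97 (SE 0.21, limma adjusted p = 0.000959), which was under the 2-fold limit, so again 0 of 8 were called. With title prefix as a covariate, the fitted differences were -4.46 for TMEM135, -6.65 for HIKESHI, -5.89 for EED and -7.40 for PICALM. In that fit only primary line 23, and primary line 22 through its average with line 19, shared a prefix with tissues. The 4 members past the threshold there thus rest on 1 of the arrays for which they were chosen, and are a description with no test. Without lines 6 and 23 none was past it, with EED at 1.22 (limma adjusted p = 0.496).

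Metastatic lines set against primary lines gave 0 of 8 members at an adjusted p under 0.05, where 0.0127% of all genes (1 of 7849) passed. No member had an unadjusted p under 0.05, which 6.8% of all genes had. The primary lines here included both arrays the genes were chosen on, which lowered the primary mean and widened the spread of every member. For EED the primary mean was 9.20 (SD 2.36) with those arrays and 9.89 (SD 0.37) without them. This comparison therefore cannot decide whether the members differ between metastatic and primary lines. EED had 10.32 in metastatic lines and 9.20 in primary lines (difference 1.12, SE 1.22, limma adjusted p = 0.898). The smallest p was that of ME3, at 10.27 in metastatic and 8.01 in primary lines (difference 2.26, SE 1.25, limma adjusted p = 0.769). That ME3 probe set had 10.52, 9.37 and 10.93 on metastatic lines 1 to 3. A dimmer ME3 probe set (line median 6.13) had 2.90, 7.11 and 8.84 there, so the 2 probe sets differ most on metastatic line 1.

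Within the run the members varied together largely through 2 arrays. Over the 27 line columns, the 28 pairwise Pearson correlations between members had a median of 0.795 (0.461 to 0.990). Without lines 6 and 23 they had a median of 0.196 (-0.445 to 0.619). EED and PICALM correlated at 0.990 with both arrays and at 0.576 without them, and EED and HIKESHI at 0.983 and at 0.231. These are descriptions over line columns that include the 2 arrays the genes were chosen on.

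The gene outside the run with the pattern most like it over the 27 line columns was INPPL1 (Pearson r = 0.935, Spearman rho = 0.653), a lipid phosphatase gene also on chromosome 21. It had 4.38 on line 6 and 6.80 on line 23, against 7.92 to 10.72 on the other lines. A second, dimmer INPPL1 probe set had 2.22 on line 6, below the 2.50 to 6.36 of the other line arrays. On line 23 it had 2.86, inside that range. For the first probe set, r without lines 6 and 23 was 0.633. The next were CALHM2 (r = 0.891, rho = 0.574), LAMP2 (0.833, 0.231), SNCG (0.825, 0.053), PSTPIP2 (0.812, 0.226), TCEAL1 (0.812, 0.264), IL13RA1 (0.796, 0.342) and LAMP1 (0.795, 0.359), out of 7807 genes compared. Without lines 6 and 23, r was 0.02 for SNCG, -0.11 for LAMP2, 0.143 for TCEAL1, 0.216 for IL13RA1 and 0.235 for PSTPIP2. The likeness of these genes thus rested largely on lines 6 and 23. For CALHM2 and LAMP1, r without them was 0.603 and 0.516.

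The partners of EED in PRC2 remained at measurable levels on both arrays. EZH2 had 8.85 on line 6 and 9.37 on line 23, against 6.16 to 9.31 on the other line columns, 9.77 on primary line 22 by itself and 6.97 to 9.87 in tissues. SUZ12 had 7.08 on line 6 and 7.03 on line 23, against 3.40 to 7.60. JARID2, which recruits PRC2 to its targets, had 8.06 on line 6 and 8.47 on line 23, above the other lines (4.94 to 7.87) and at the lower end of the tissues (8.06 to 10.16). Another JARID2 probe set had 5.48 on line 6 and 6.71 on line 23, against 3.43 to 5.55, which put line 23 alone above the other lines. A dimmer one had 4.53 on line 6 and 5.31 on line 23, both above the 2.40 to 4.19 of the other lines. AEBP2, a further PRC2 partner, had 10.58 on line 6 and 10.42 on line 23, at the bottom of the lines (10.58 to 12.67 on the others). MTF2 had 9.43 on line 6 and 9.29 on line 23, against 6.86 to 9.72. Line 23 was highest of all line columns for 2 of 7 PRC2 genes and line 6 for 0 of 7, where 9.75% of 7817 genes were highest on line 23 and 6.23% on line 6. Lowest ranks were 1 of 7 on line 23 and 0 of 7 on line 6, beside 6.22% and 4.99% of all genes.

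In the comparison of primary lines with tissues, 1 of 7 PRC2 genes was called, and 0 of 11 PRC1 genes, beside 14.6% of all genes. JARID2 averaged 6.94 ± 0.85 in primary lines and 9.12 ± 0.74 in tissues (SD, n = 24 and 6), and was lower by -2.19 (SE 0.37, limma adjusted p = 4.45e-05). PHF1, another PRC2 accessory subunit, differed by -0.998 (limma adjusted p = 0.00212), just under 2-fold, and without lines 6 and 23 by -1.02, just past it (limma adjusted p = 0.00199). The median difference was -0.83 over the PRC2 genes and -0.01 over the PRC1 genes, against -0.05 over all genes tested.

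Developmental genes that Polycomb complexes silence in many cell types were looked at on the arrays with low EED. Of 12 that passed the filter, line 6 was highest of all line columns for 1 (8.33%) and line 23 for 2 (16.7%), beside the backgrounds of 6.23% and 9.75%. The filter needed log2 over 5 on 3 arrays, so a target raised on lines 6 and 23 alone could not enter the 12. GATA3, left out by it, had 6.19 on line 6 and 4.82 on line 23, against at most 4.31 on the others. ISL1, also left out, had 4.99 on line 6 and 4.39 on line 23, against at most 3.90. Most targets left out lay inside the range of the other lines. SOX2, a stem cell transcription factor, had 8.16 on line 6 and 8.72 on line 23, against 1.67 to 5.49 (median 2.10) on the other line columns and 1.66 to 6.74 in tissues. PAX6, an eye and neural factor, had 7.02 on line 6 and 7.62 on line 23, against 2.43 to 6.93 (median 2.94) on the others. A second PAX6 probe set put both arrays at 3.79 and 4.16, inside the 2.35 to 4.56 of the other line arrays. MSX2, an osteogenic homeobox factor, had 8.93 on line 6, the highest of all line columns, and 7.76 on line 23.

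Counted without the filter, line 6 had 10 and line 23 had 11 of 53 Polycomb target genes over log2 5. The other 26 line arrays had 3 to 11 (median 4), and tissues 6 to 8. Line 22, with EED at 10.84, also had 11, and line 12 had 9. On line 6, 42.6% of all 15115 genes were over log2 5 and on line 23 43.4%, against 39.6% to 43% on the other lines. Most of the 53, on both arrays, stayed under log2 5. Against tissues, 4 of the 12 were called lower in primary lines, beside 9.06% of all genes, DLX5 by -2.91, DLX6 by -2.65, HOXA4 by -1.73 and MSX1 by -1.13 (limma adjusted p = 0.00481, 0.000562, 0.00823 and 0.0264).

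**Figure D4:**
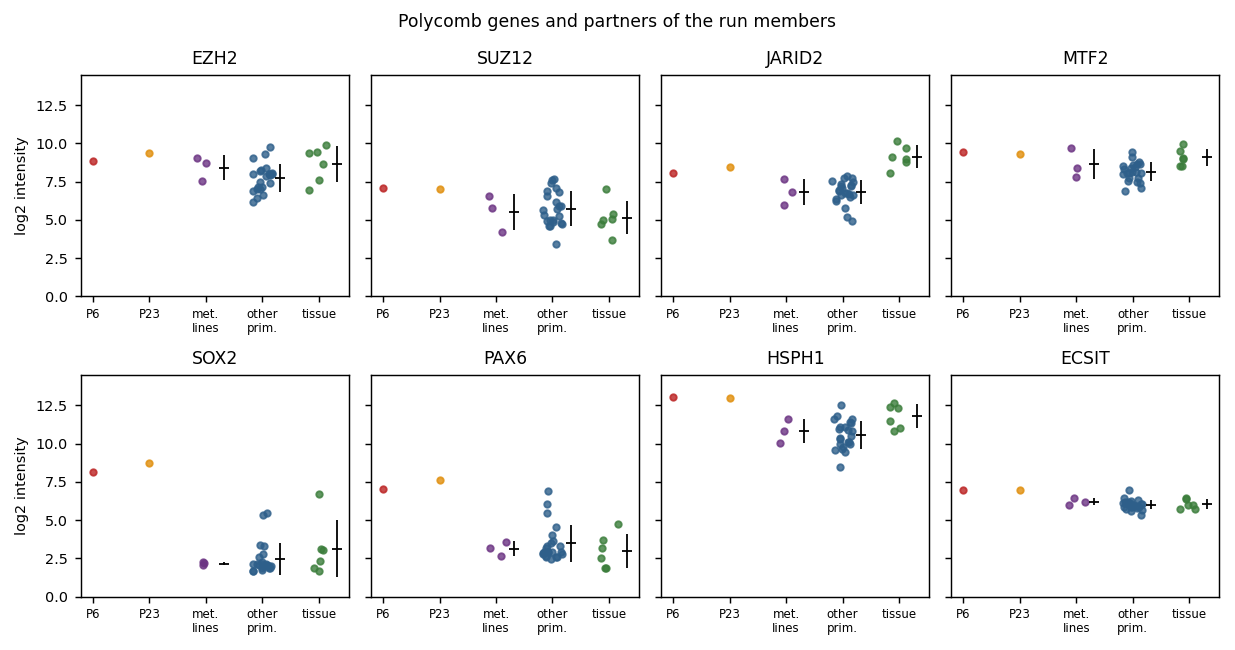
Log2 intensity (y axis) of the PRC2 genes EZH2, SUZ12, JARID2 and MTF2, the Polycomb targets SOX2 and PAX6, the chaperone gene HSPH1 and the complex I assembly factor ECSIT, on the same groups of arrays as in the plot of the 8 members. Each point is 1 array and bars give the mean and SD of groups. For SOX2, primary lines 6 and 23 stand at 8.16 and 8.72, above all other arrays.

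The functional neighbours of the other members were described in the same way. For ME3, the cytosolic malic enzyme ME1 had 11.03 on line 6 and 10.61 on line 23, among the lowest line columns (10.70 to 12.62 on the others). Primary line 22 by itself had 9.81, below both. A second ME1 probe set had 7.72 on line 6 and 7.24 on line 23, inside the 6.05 to 10.55 of the other line arrays. ME2 had 6.96 on line 6 and 7.63 on line 23 (5.37 to 8.10). ME1 was the 1 of 3 genes in its list that was called, beside 14.6% of all genes, and was higher in primary lines by 1.44 (SE 0.30, limma adjusted p = 0.000655). For TMEM126A and TMEM126B, line 6 was highest of all line columns for 3 of 13 complex I assembly factors and line 23 for 0, beside 6.23% and 9.75% of all genes. NDUFAF5 had 9.64 on line 6 and 9.57 on line 23 (8.15 to 9.53 on the others). ECSIT had 6.99 on line 6 and 6.97 on line 23 (5.35 to 6.63), and TIMMDC1 8.74 on line 6 and 7.57 on line 23 (5.45 to 8.61). Those ranges use the average of primary lines 19 and 22. Primary line 22 by itself had 6.945 for ECSIT, close to both, and 8.93 for TIMMDC1, above both. Against tissues 1 of the 13 was called, beside 14.6% of all genes, FOXRED1, lower by -1.43 (limma adjusted p = 0.0207).

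For HIKESHI, the 11 tested genes of the HSP70 system averaged 10.72 on line 6 and 10.70 on line 23, against 9.55 to 10.44 on the other line columns and 9.29 to 10.34 in tissues. HSPH1, an HSP70 nucleotide exchange factor, had 13.05 on line 6 and 12.96 on line 23, against 8.50 to 12.06 on the other columns, and both of its other probe sets also stood above the other lines. HSPBP1, a co-chaperone, had 10.01 on line 6 and 10.35 on line 23, against 7.35 to 9.75. HSPA4, of the HSP70 family, had 12.33 on line 6 and 11.75 on line 23, against 10.50 to 11.93. Line 6 was highest of all line columns for 2 of the 11 (18.2%) and line 23 for 1 (9.09%). The shares over all genes were 6.23% on line 6 and 9.75% on line 23. Not all were high, as DNAJB4 had 10.44 on line 6 and 10.55 on line 23, below the median of 11.07 on the others. None of the 11 was called between primary lines and tissues (0 of 11, with 3 at an unadjusted limma p under 0.05), beside 14.6% called and 35.5% at that p among all genes. Without lines 6 and 23, HSPH1 was called, with 10.52 ± 0.88 in primary lines and 11.79 ± 0.78 in tissues (SD, n = 22 and 6; difference -1.27, limma adjusted p = 0.0143). For PICALM, 0 of 13 clathrin and adaptor genes were called against tissues, and 4 had an unadjusted limma p under 0.05, beside the same 14.6% and 35.5%. That list averaged 9.74 on line 6 and 9.52 on line 23, within the other lines (8.84 to 10.16).

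Of 20 tested genes that lie beside or between the members in human order, 5 were called between primary lines and tissues, beside 14.6% of all genes. CTSC was lower by -4.50, RAB38 by -3.44, TENM4 by -2.12 and PRCP by -1.05, and CHORDC1 was higher by 1.04 (limma adjusted p = 9.19e-06, 2.21e-06, 0.0116, 0.0326 and 0.0116). CTSC and RAB38 are the genes next to TMEM135. NOX4, further out on that side, was not called with all arrays and was called without lines 6 and 23 (difference 1.08, limma adjusted p = 0.0301).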

How the data were processed

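The authors deposited 1 intensity for each probe set on each array. These came from GCRMA, per the submitters' processing notes, and neither its version nor its settings is given in the sources used here. Values were linear, and log2 was taken after a floor of 1, below which no value lay (0). Of 43035 probe sets, 175 controls were left out, 29264 had a single symbol in the platform annotation, 439 had several and 13332 were not listed, and 27690 matched the UU_Cfam_GSD_1.0 gene table, which was used for names and gene order only.

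A probe set was kept at log2 over 5 on at least 3 arrays, which kept 18 of the 20 member probe sets and all 8 genes. The one with the highest mean stood for its gene. limma 3.58.1 (lmFit, eBayes) in R 4.3.3 fitted all 3 groups together, with Benjamini-Hochberg adjustment over 7849 genes, and was tested on simulated data. Ranks and likeness to the run were taken from 7817 genes, since a gene was kept there only where its brightest probe set was. Correlations between arrays used all 42860 probe sets without controls. Arrays have no read depth, and their number limits the precision. Lines and tissues shared dogs OSCA_71 and OSCA_73, where deviations correlated at 0.157 and -0.176. Alternatives were the filter, normalization, probe set choice, title prefix, dog as a block, separate OSCA_71 arrays and each array left out. Low calls used every probe set with a line median of log2 7 or more, not only the brightest of each gene. The members and lists were chosen with earlier results of these data known. Genes named were the members, their neighbours, the 8 most like them, the deepest low calls elsewhere, and list members with large differences or extreme ranks on lines 6 and 23. HSPH1, ECSIT, NDUFAF5, TIMMDC1, HSPA4, HSPBP1, ME2, MTF2, SUZ12, EZH2, AEBP2 and the chromosome 26 genes lie outside that rule where they are not among the largest differences, and were chosen with their values in view.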

Additional observations from a re-analysis of the deposited data

How the results depend on the processing

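Of 499 alternative values, 468 kept their side of the threshold or, for counts, stayed within 1.5 times. A change of direction counted as a change only where either fit called the gene. Uncalled members could thus change sign and still count as kept. PRSS23 differed by -0.0037 with all arrays and by 0.375 without line 6, and TMEM126A by -0.05 and 0.36. Leaving out each array in turn gave 987 to 1221 called genes (1148 with all arrays), 0 called members each time, and 1 to 3 called PRC2 and PRC1 genes (1 with all arrays). Each of these fits kept line 6, line 23 or both, so the 0 called members have the same limit as with all arrays. PRC2 and PRC1 calls were 2 with dog as a random replicate block, 2 when the probe set with the widest interquartile range stood for its gene, and 2 without lines 6 and 23. Title prefix as a covariate gave 366 called genes, 4 called members and 0 PRC2 and PRC1 genes, and turned TMEM135 to -4.46. Within title prefix 3 there were 251 called genes and 0 PRC2 and PRC1 genes. Chosen after seeing the data, title prefix 3 without line 23 gave 99 and 0, and the covariate without lines 6 and 23 gave 82 and 0. These fits hold 2 lines or fewer beside the tissues of their prefix, a lone line being assumed to vary like the tissues, and the cause was not tested. With the brightest probe set alone, 8 member probe sets were low in place of 15, since 8 were then judged. The 8 genes on line 6 and 6 on line 23 were low under every setting run for the low call. With the block 1153 genes were called, and the call of none of the 8 members changed. The platform's dim probe sets limit the ends of the run, since RAB38, CTSC, SYTL2 and CREBZF could not be judged.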

Other observations

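Some genes that are not members had values on lines 6 and 23 far from those of all other line columns, and were picked after their values were seen. GRIA2, a glutamate receptor subunit, had 11.01 on line 6 and 10.56 on line 23, against 1.70 to 2.32 on the 25 other line columns. CRABP1, a retinoic acid binding protein, had 9.18 on line 6 and 9.29 on line 23, against 2.53 to 3.98. IGF2BP1, an oncofetal RNA binding protein, had 10.81 on line 6 and 10.91 on line 23, against 2.66 to 8.01. In the other direction, SNCG had 2.18 on line 6 and 2.58 on line 23, against 7.35 to 13.03, and ABCA8, a lipid transporter, had 2.76 on line 6 and 2.44 on line 23, against 4.10 to 9.66. No test was made, because both the arrays and the genes were picked on measured values.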
